A study of Mus musculus with 8 samples.

Results

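Interferon-stimulated genes were followed in Ebf1-deficient mouse pro-B cell lines that differ in T-lineage potential, and in cells of the line without potential that received Lmo2. The list held 44 genes chosen by name, and 42 of them had a probe, among 20125 genes with a named probe on the array. Where several probes matched a symbol, the one brightest on average across the 8 deposited matrix columns was taken. Mx1 and Mx2 had no matched probe. The lines came from Ebf1-deficient fetal liver progenitors grown with SCF, Flt3L and IL-7, so every group lacked Ebf1, a transcription factor that commits progenitors to the B lineage. Pro-B(+) cells, the line with T-lineage potential, were kept on OP9 stroma, and pro-B(-) cells, the line without it, on TD7 thymic stroma. Line and stroma therefore cannot be told apart. The transduced groups, pro-B(-)/Mock with an empty lentiviral vector and, with a vector carrying Lmo2, pro-B(-)/LMO2, were made from pro-B(-) cells. Lmo2 encodes a LIM-domain adaptor of transcription factor complexes. The labels do not give the stroma of the transduced cells. Each of the 4 groups had 2 arrays of total RNA, whose independence is stated for the parental lines and for no transductant, so the p-values below measure the spread between these arrays, which may be technical.

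Type I interferons signal through IFNAR1 and IFNAR2 and the kinases JAK1 and TYK2 to a complex that holds STAT2 and IRF9 and binds the interferon-stimulated response element (ISRE). Interferon gamma signals through IFNGR1 and IFNGR2 to factors that bind the gamma-activated site (GAS). Many of the induced genes restrict viruses or present antigen, and stem and progenitor cells are known to hold some of them at a basal level without infection.

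The promoters of members that carry the main contrasts are shown first, because Isg15, Gbp2, Ifit3 and Rsad2 are textbook targets with large changes, Bst2 has the same element and changed little, and Tap1 fell where most of the list rose. Each line gives the 200 bases before the RefSeq transcription start (GRCm38.p6), 5′ to 3′ in the direction of the gene, and capitals mark matches to the ISRE core GAAANNGAAA or its reverse complement TTTCNNTTTC. The stretches lie at chr4:156200819-156201018 on the minus strand for Isg15 and chr3:142620463-142620662 on the plus strand for Gbp2. Those of Ifit3 and Rsad2 lie at chr19:34583329-34583528 on the plus strand and chr12:26456453-26456652 on the minus strand. Those of Bst2 and Tap1 lie at chr8:71537473-71537672 on the minus strand and chr17:34187356-34187555 on the plus strand.
Isg15: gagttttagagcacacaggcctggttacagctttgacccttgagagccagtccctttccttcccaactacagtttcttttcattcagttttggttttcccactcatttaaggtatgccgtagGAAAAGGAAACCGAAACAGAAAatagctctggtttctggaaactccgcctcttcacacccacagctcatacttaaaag
Gbp2: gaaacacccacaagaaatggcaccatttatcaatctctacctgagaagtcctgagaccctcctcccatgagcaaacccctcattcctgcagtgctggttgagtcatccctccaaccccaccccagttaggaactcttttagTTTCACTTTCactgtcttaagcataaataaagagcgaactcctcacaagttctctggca
Ifit3: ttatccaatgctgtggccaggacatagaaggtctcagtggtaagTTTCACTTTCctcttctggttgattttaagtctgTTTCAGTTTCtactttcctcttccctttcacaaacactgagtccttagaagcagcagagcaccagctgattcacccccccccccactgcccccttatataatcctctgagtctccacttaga
Rsad2: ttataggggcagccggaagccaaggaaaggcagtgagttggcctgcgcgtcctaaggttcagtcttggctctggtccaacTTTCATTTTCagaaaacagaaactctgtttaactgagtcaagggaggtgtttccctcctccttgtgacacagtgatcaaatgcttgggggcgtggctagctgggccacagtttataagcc
Bst2: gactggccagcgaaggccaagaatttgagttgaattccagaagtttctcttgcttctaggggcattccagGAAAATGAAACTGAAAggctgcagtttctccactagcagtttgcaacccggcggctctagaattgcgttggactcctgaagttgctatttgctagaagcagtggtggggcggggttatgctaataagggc
Tap1: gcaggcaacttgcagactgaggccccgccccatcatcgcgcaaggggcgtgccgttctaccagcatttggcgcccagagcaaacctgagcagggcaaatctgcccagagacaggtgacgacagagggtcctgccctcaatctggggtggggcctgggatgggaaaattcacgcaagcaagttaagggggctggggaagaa

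The start of Psmb9 lies 226 bases from that of Tap1 on the opposite strand, so the Tap1 stretch lies directly upstream of both genes. Over windows from 250 bases before to 50 bases after each start, on both strands, the ISRE core was found for 18 of the 35 members with an entry (51.4%) and for 1079 of 27025 genes in the table (3.99%). The GAS letters TTCNNNGAA, which are their own reverse complement, were found for 12 of the 35 members (34.3%) and for 9.55% of all genes. ISRE core matches overlapped one another in 5 members and overlapped a GAS match in 2. No entry was given for Dhx58, Zbp1, Oas2, Usp18, Mx1, Mx2, Rtp4, Parp14 and Iigp1. A match describes the letters in the window and nothing about binding. Members without the ISRE core in the window, such as Oasl2 and Ifitm6, also had large changes, and their stretches are not shown.

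Values are processed intensities on the log2 scale after subtraction of the 75th percentile of each array, so 0 is the upper quartile of the array and 1 unit is a doubling. A probe counts as measured on an array where the scanner software marked it well above background, and 56.5% to 61.2% of probes were so marked. No spot was saturated. The log2 difference between the replicates of a group had an SD of 0.130 to 0.150 over 20376 probes. Pro-B(+) and pro-B(-) shared 1 slide and the transductants shared another, which was scanned apart. The Lmo2 probe read 0.35 in both pro-B(-)/Mock arrays and 0.99 and 0.93 in pro-B(-)/LMO2, an increase of 0.61 (SE 0.035). It read 2.09 and 2.10 in pro-B(+) cells. The place of this probe in the transcript is not given, so it does not show how much vector Lmo2 was present.

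Most of the interferon-stimulated genes tested were higher in cells with T-lineage potential than in cells without it. Most were also higher in cells without potential that carried Lmo2 than in those with the empty vector. In pro-B(+) against pro-B(-), 28 of the 41 members tested were called higher and 5 lower, at an adjusted p under 0.05 in limma. Of all probes tested in that comparison, 20.6% were called higher and 28.0% lower. With Lmo2 against the empty vector, 36 of 39 members were called higher and 1 lower, where 28.0% of all probes were called higher and 36.0% lower. Empty-vector cells against untransduced pro-B(-) cells went the other way, with 5 of 38 members called higher and 19 lower, against 27.9% and 30.2% of all probes. The median fitted log2 change of the tested members was 0.81 for the parental lines, 1.32 for Lmo2 and -0.21 for the empty vector, and that of all probes was -0.04, -0.04 and -0.01.

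A member could enter the test through a single group in which it was bright, so the counts were also taken over members well above background on all 4 arrays of a comparison. For the parental lines these were 37 members, with 24 called higher, 5 lower and a median of 0.58. Lmo2 gave 35 such members, with 33 called higher, 0 lower and a median of 1.18. Their shares called higher were 64.9% and 94.3%, and those of all named genes under the same filter were 22.3% and 29.7%. Arrays scaled by their median instead moved the median change of all probes to -0.33 and -0.25, and the parental members then split into 26 higher and 11 lower, in place of 28 and 5.

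**Figure D1:**
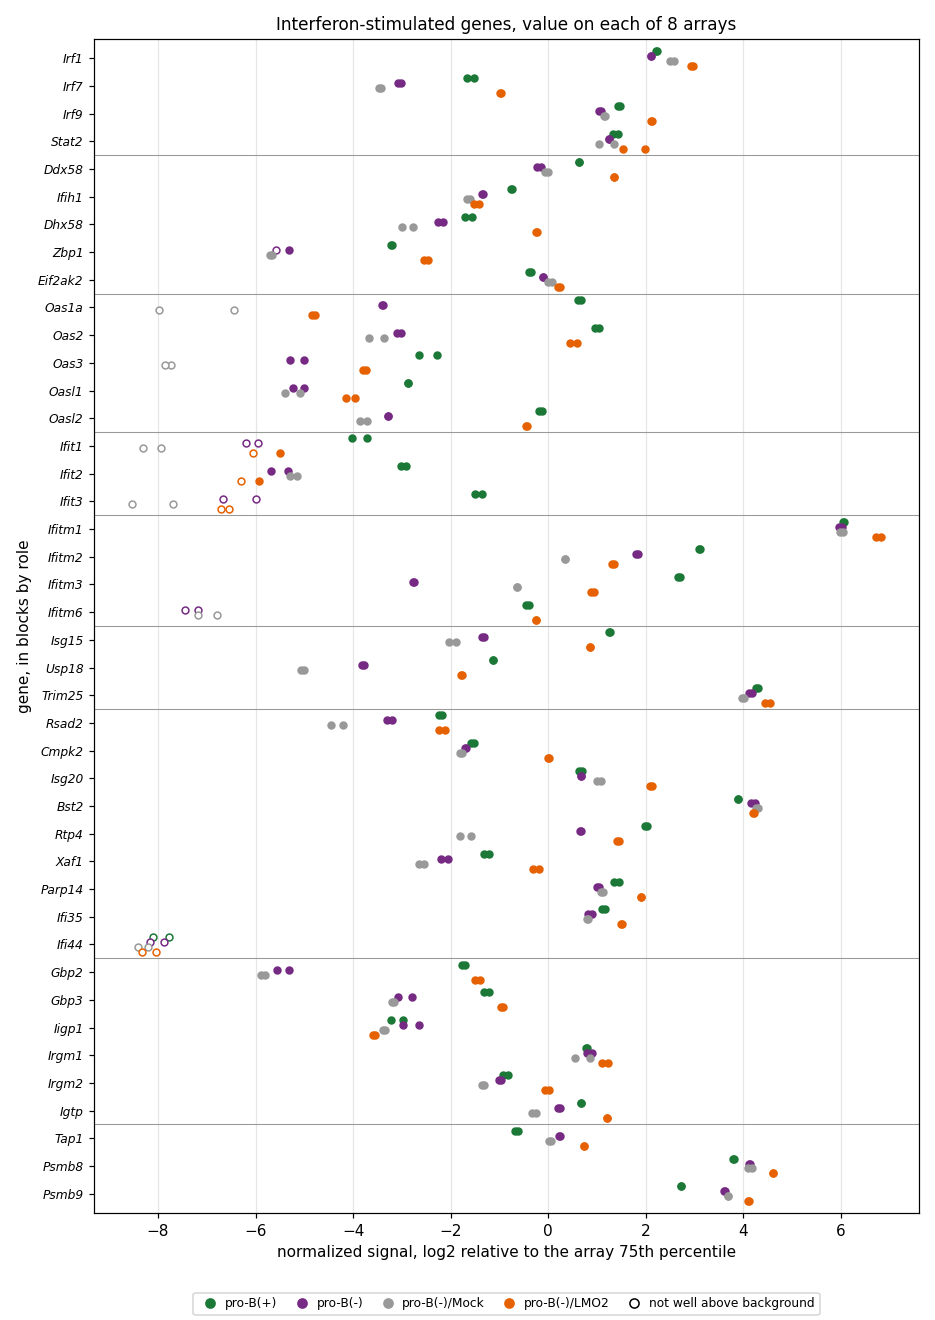
Normalized log2 signal (x axis, relative to the 75th percentile of each array) of the 42 members with a probe, in blocks by role; each point is 1 array, colours are the 4 groups, and open points were not well above background. For 25 members the highest mean was in pro-B(-)/LMO2 and for 15 in pro-B(+), while for 27 the lowest was in pro-B(-)/Mock.

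Among the transcription factors, Irf7, the factor that amplifies type I interferon production, changed most. Its level was -1.67 and -1.53 in pro-B(+), -3.02 and -3.08 in pro-B(-), -3.47 and -3.42 with the empty vector and -0.96 and -1 with Lmo2. The Lmo2 cells were the highest and the empty-vector cells the lowest, and no groups overlapped. Irf7 differed 2.74-fold between pro-B(+) and pro-B(-) cells (adjusted p = 1.8e-05) and Lmo2 raised it 5.54-fold over the empty vector (adjusted p = 3.2e-06). Irf9, the DNA-binding partner of STAT2, rose by log2 0.39 (SE 0.036, adjusted p = 0.00046) and 0.96 (SE 0.036, adjusted p = 1.4e-05) in these comparisons. Its level was 1.43 and 1.46 in pro-B(+), 1.03 and 1.08 in pro-B(-), 1.16 and 1.15 with the empty vector and 2.10 and 2.13 with Lmo2. Irf1, the founding member of the IRF family and an early target of interferon gamma, did not pass the test between the parental lines (log2 0.11, SE 0.037, adjusted p = 0.057) and was higher with Lmo2 (0.41, SE 0.037, adjusted p = 0.00031). On median-scaled arrays the parental Irf1 value turned to -0.17 (adjusted p = 0.012). It was called higher after quantile normalization (0.14, adjusted p = 0.022), normexp background correction (0.16, adjusted p = 0.016) and with an intensity trend (0.11, adjusted p = 0.022). The Lmo2 call of Irf1 was lost when both its probes were averaged (0.47, adjusted p = 0.63). Stat2 showed no call between the parental lines (0.13, SE 0.17, adjusted p = 0.57) and a fragile call with Lmo2 (0.56, SE 0.17, adjusted p = 0.032). The call was lost without pro-B(-)/LMO2 replicate 2 (0.33, adjusted p = 0.11) and without pro-B(-)/Mock replicate 2 (0.41, adjusted p = 0.15). Leaving out any single pro-B(+) or pro-B(-) array also ended it (adjusted p = 0.0556 to 0.0598). So did median scaling (0.35, adjusted p = 0.115), no filter on dim probes (adjusted p = 0.0715), the 4 arrays of the comparison (adjusted p = 0.0832) and a replicate block (adjusted p = 0.0532). The Lmo2 arrays of Stat2 were at 1.53 and 1.98 and its empty-vector arrays at 1.35 and 1.03, a wider spread than for the other factors.

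The sensors of viral nucleic acid were called higher in 4 of 5 cases between the parental lines and in all 5 cases with Lmo2. Of all probes tested, 20.6% and 28.0% were called higher, and these shares also stand beside the family counts in the paragraphs below. Zbp1, a sensor of Z-form nucleic acid, was at -3.22 and -3.21 in pro-B(+) and at -5.31 and -5.59 in pro-B(-), where 1 of 2 arrays was well above background. It stood at -5.67 and -5.70 with the empty vector and at -2.54 and -2.46 with Lmo2, 9.10-fold higher (adjusted p = 6.1e-06). The fitted parental change was 2.24 (SE 0.093, adjusted p = 2.0e-05). Dhx58 (LGP2), a regulator of RIG-I-like receptors, moved far more with Lmo2 than between the lines. It was at -1.70 and -1.57 in pro-B(+), -2.27 and -2.15 in pro-B(-), -3.00 and -2.77 with the empty vector and -0.25 and -0.24 with Lmo2. Lmo2 raised it 6.24-fold (adjusted p = 1.0e-05), and the parental difference was 0.58 (SE 0.090, adjusted p = 0.0039). Ddx58, which encodes the RNA helicase RIG-I, rose 2.61-fold with Lmo2 (adjusted p = 7.5e-06), from -0.07 and 0.00 to 1.34 and 1.35. Ifih1 (MDA5) and Eif2ak2 (PKR), further sensors of double-stranded RNA, changed by at most 0.59 on the log2 scale in either comparison, and Eif2ak2 was lower in pro-B(+).

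All 5 members of the oligoadenylate synthetase family, whose founding enzymes make the activator of RNase L, were called higher in both comparisons. Oas2 was at 0.96 and 1.03 in pro-B(+) and -3.02 and -3.11 in pro-B(-), and at -3.36 and -3.68 with the empty vector and 0.58 and 0.45 with Lmo2. The changes were 16.7-fold (adjusted p = 4.8e-06) and 16.4-fold (adjusted p = 5.4e-06), and both low groups lay far below both high groups. Oasl2 repeated this, with -0.19 and -0.12 in pro-B(+), -3.28 and -3.29 in pro-B(-), -3.86 and -3.72 with the empty vector and -0.45 and -0.44 with Lmo2. Its changes were 8.77-fold (adjusted p = 1.3e-06) and 10.2-fold (adjusted p = 1.5e-06). Oasl1, known as a brake on IRF7 translation, was 4.75-fold higher in pro-B(+) (adjusted p = 7.1e-05) and 2.26-fold higher with Lmo2 (adjusted p = 0.00061).

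Oas1a and Oas3 were not well above background in empty-vector cells, so their Lmo2 changes are lower bounds. A bound sets the mean of the bright group against the dim group, with each dim array at its own value or at the lowest signal among probes well above background there, whichever is higher. Oas1a was at 0.67 and 0.61 in pro-B(+), -3.41 and -3.38 in pro-B(-) and -4.85 and -4.79 in pro-B(-)/LMO2. Pro-B(+) exceeded pro-B(-) cells 16.4-fold (adjusted p = 0.0012), and Lmo2 raised it at least 2.42-fold over the empty vector (adjusted p = 0.006). The Lmo2 cells thus lay below the untransduced pro-B(-) cells for this gene. Oas3 was at -2.66 and -2.28 in pro-B(+), -5.30 and -5.01 in pro-B(-) and -3.74 and -3.80 in pro-B(-)/LMO2. It was 6.42-fold higher in pro-B(+) (adjusted p = 6.7e-05) and at least 5.03-fold higher with Lmo2 (adjusted p = 1.5e-05).

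**Figure D2:**
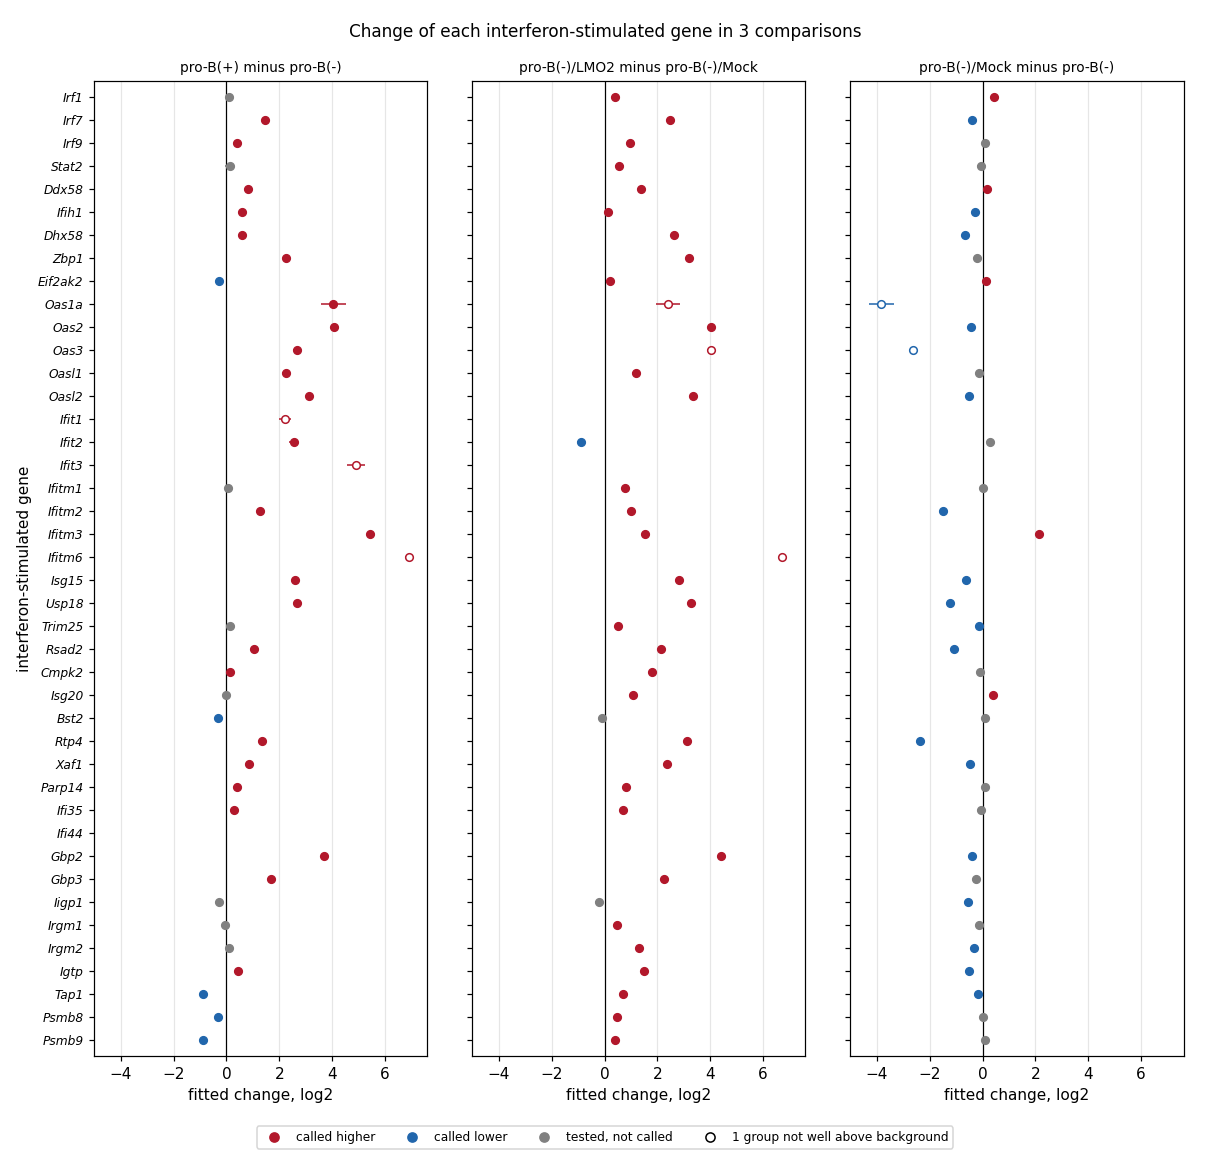
Fitted log2 change (x axis) of each member in the 3 comparisons, with bars of 1 SE; red and blue points were called higher and lower, grey points were tested and not called, open points had 1 group not well above background, and a gene without a point was not tested. The points of the Lmo2 panel lie to the right of 0 except for Ifit2, Bst2 and Iigp1.

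All 3 IFIT genes, whose proteins bind viral RNA, were called higher in pro-B(+). Ifit3 was at -1.51 and -1.35 there and was not well above background in any other group, which put it at least 20.8-fold above pro-B(-) (adjusted p = 0.00014). Ifit1 was at -3.71 and -4.03 in pro-B(+), at least 3.83-fold above pro-B(-) (adjusted p = 0.00084), and among the other groups only 1 pro-B(-)/LMO2 array was well above background. Ifit2 was at -2.92 and -3.02 in pro-B(+) and at -5.69 and -5.33 in pro-B(-), 5.80-fold apart (adjusted p = 0.00011). With Lmo2, Ifit1 and Ifit3 could not be tested, and Ifit2 was the single member called lower, at -5.16 and -5.30 with the empty vector and -6.30 and -5.94 with Lmo2 (log2 change -0.89, SE 0.16, adjusted p = 0.0047). Only 1 of these Lmo2 arrays was well above background for Ifit2. For all 3 IFIT genes, both Lmo2 arrays lay below both pro-B(+) arrays.

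The IFITM family of membrane proteins, which block virus entry, split by member. Ifitm6, a family member known from myeloid cells, was at -0.46 and -0.40 in pro-B(+) and at -0.26 on both pro-B(-)/LMO2 arrays, and was not well above background in pro-B(-) or pro-B(-)/Mock cells. Its excess in pro-B(+) was at least 41.5-fold (adjusted p = 1.9e-06) and with Lmo2 at least 57.2-fold (adjusted p = 2.5e-06). Ifitm3 was at 2.65 and 2.70 in pro-B(+), -2.75 and -2.78 in pro-B(-), -0.65 and -0.64 with the empty vector and 0.88 and 0.93 with Lmo2. The parental difference was 43.5-fold (adjusted p = 2.3e-07) and the Lmo2 difference 2.94-fold (adjusted p = 3.2e-06), and the empty-vector cells were already well above the untransduced ones. Ifitm2 was at 3.08 and 3.11, 1.84 and 1.80, 0.34 on both arrays, and 1.31 and 1.35 in the same order of groups. It rose 2.42-fold in pro-B(+) (adjusted p = 4.1e-06) and by 0.99 with Lmo2 over the empty vector (SE 0.034, adjusted p = 1.0e-05). Both Lmo2 arrays lay below both untransduced pro-B(-) arrays for Ifitm2. Ifitm1 lay between 5.95 and 6.82 on all 8 arrays and was called higher with Lmo2 by 0.76.

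Isg15, the ubiquitin-like modifier, and Usp18, the protease that removes it and restrains the type I receptor, moved together. Isg15 was at 1.25 and 1.26 in pro-B(+), -1.32 and -1.35 in pro-B(-), -1.89 and -2.04 with the empty vector and 0.86 and 0.85 with Lmo2. It was 6.01-fold higher in pro-B(+) (adjusted p = 1.9e-06) and 7.08-fold higher with Lmo2 (adjusted p = 1.9e-06). Usp18 was at -1.14 and -1.13, -3.81 and -3.78, -5 and -5.07, and -1.77 and -1.78 in the same order. Its changes were 6.34-fold (adjusted p = 6.4e-07) and 9.60-fold (adjusted p = 5.4e-07). For both genes the order from high to low was pro-B(+), Lmo2, untransduced pro-B(-) and empty vector, with no overlap. Trim25, the ubiquitin ligase that acts on RIG-I, was called higher with Lmo2 alone, by 0.51 (SE 0.046, adjusted p = 0.00029), with a parental value of 0.14 (adjusted p = 0.051).

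Of the further antiviral effectors, 6 of 8 tested were called higher in pro-B(+) and 7 of 8 with Lmo2. These were 75% and 87.5%, beside 20.6% and 28.0% of all probes. Rsad2 (viperin) was at -2.24 and -2.18 in pro-B(+), -3.31 and -3.21 in pro-B(-), -4.46 and -4.20 with the empty vector and -2.25 and -2.11 with Lmo2, so that the pro-B(+) and Lmo2 arrays overlapped. It rose 2.07-fold (adjusted p = 0.00052) and 4.44-fold (adjusted p = 2.9e-05). Cmpk2, a mitochondrial nucleotide kinase that is the divergent neighbour of Rsad2, was nearly level between the lines (log2 0.14, SE 0.041, adjusted p = 0.036) and 3.47-fold higher with Lmo2 (adjusted p = 3.0e-06). Rtp4, a chaperone-like protein that inhibits viral replication, was at 1.98 and 2.02, 0.67 and 0.64, -1.82 and -1.59, and 1.41 and 1.44 for pro-B(+), pro-B(-), the empty vector and Lmo2 in turn. It rose 2.55-fold (adjusted p = 6.8e-05) and 8.75-fold (adjusted p = 3.7e-06). Xaf1, a pro-apoptotic factor, was 5.10-fold higher with Lmo2 (adjusted p = 9.2e-06) and 1.81-fold higher in pro-B(+) (adjusted p = 0.00045). Isg20, an exonuclease, was 2.08-fold higher with Lmo2 (adjusted p = 2.2e-05), and its parental value was -0.02 (adjusted p = 0.80). Parp14 and Ifi35 rose by 0.27 to 0.80 in these comparisons.

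Bst2 (tetherin) lay between 3.88 and 4.30 on all 8 arrays. Pro-B(+) cells had 0.31 less on the log2 scale than pro-B(-) cells (adjusted p = 0.0014), and Bst2 was not called with Lmo2 (-0.08, SE 0.038, adjusted p = 0.13). Its promoter shown above holds overlapping ISRE core matches, as do those of Isg15, Oas1a, Gbp3 and Irgm1. Ifi44 was not well above background on any array and could not be tested. Of the 18 members with the ISRE core in the window, 13 were called higher in pro-B(+) and 15 of the 16 tested with Lmo2. Of the 17 without it, 9 of 16 tested were called higher in pro-B(+) and 15 of 16 with Lmo2. Over all probes tested, 20.6% were called higher in pro-B(+) and 28.0% with Lmo2.

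Among the interferon-inducible GTPases, which act on the membranes around intracellular pathogens, Gbp2 had the largest change. It was at -1.76 and -1.71 in pro-B(+), -5.32 and -5.56 in pro-B(-), -5.81 and -5.88 with the empty vector and -1.5 and -1.4 with Lmo2. The changes were 13.0-fold (adjusted p = 2.8e-06) and 21.0-fold (adjusted p = 2.1e-06). Gbp3 followed at a smaller size, 3.19-fold higher in pro-B(+) (adjusted p = 7.7e-05) and 4.73-fold higher with Lmo2 (adjusted p = 2.4e-05). The immunity-related GTPases Irgm2 and Igtp (Irgm3) rose 2.49-fold (adjusted p = 1.5e-05) and 2.84-fold (adjusted p = 4.2e-06) with Lmo2. Between the parental lines Irgm2 was not called (0.11, adjusted p = 0.12) and Igtp was higher by 0.45 (adjusted p = 0.00036). Irgm1 changed by at most 0.47, and Iigp1 was not called in either comparison (log2 -0.28 and -0.22, SE 0.13 each).

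The genes of class I antigen processing went in opposite directions in the parental and Lmo2 comparisons. Tap1, a subunit of the peptide transporter, was at -0.68 and -0.62 in pro-B(+), 0.21 and 0.23 in pro-B(-), 0.05 and 0.02 with the empty vector and 0.74 on both arrays with Lmo2. Psmb9, an immunoproteasome subunit that shares its promoter with Tap1, was at 2.71 and 2.73, 3.62 and 3.60, 3.69 on both arrays, and 4.09 and 4.11 in the same order. Both were lowest in pro-B(+) and highest in the Lmo2 cells, with no overlap between those groups and the rest. Between the parental lines the log2 changes were -0.87 (SE 0.036, adjusted p = 2.1e-05) for Tap1 and -0.89 (SE 0.031, adjusted p = 9.9e-06) for Psmb9. With Lmo2 they were 0.70 (SE 0.036, adjusted p = 4.2e-05) and 0.41 (SE 0.031, adjusted p = 0.00014). Psmb8, another immunoproteasome subunit, fell by 0.33 between the lines and was higher by 0.47 with Lmo2.

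**Figure D3:**
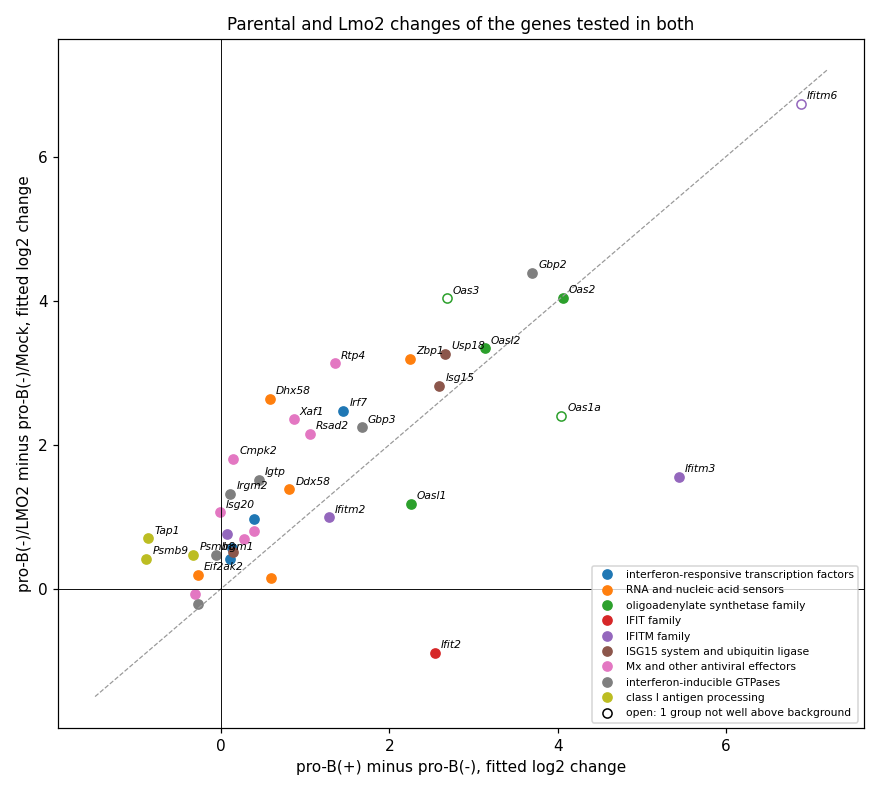
Fitted log2 change of the 39 members tested in both comparisons, pro-B(+) minus pro-B(-) on the x axis and Lmo2 minus empty vector on the y axis, coloured by role, with the line of equal change dashed and open points where 1 group was not well above background. Points above the line had the higher signed change with Lmo2, whatever the size of either change; Ifitm3 (5.44 and 1.55) and Ifit2 (2.54 and -0.89) lie far below it, and Tap1, Psmb8, Psmb9 and Eif2ak2 are called points in the upper left.

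The parental and Lmo2 comparisons share no array, and 25 members were called higher in both. These were 96.2% of the 26 members higher in pro-B(+) and 69.4% of the 36 higher with Lmo2, among 39 tested in both. Over all named genes tested in both, the overlap of higher calls was 55.6% and 44.3% of each list. Since 92.3% of the 39 members were called higher with Lmo2, beside 30.8% of all named genes tested, a large overlap followed from these counts. The overlap is therefore no separate sign that both comparisons moved the same members. The sizes differed for most members: the test of the difference between both changes called 34 of 41 members, where 54.1% of all probes were called. The signed difference, the parental log2 change minus the Lmo2 log2 change, was below 0 for 28 of these and above 0 for 6. A difference below 0 gives no order of sizes, since Tap1, Psmb9, Bst2 and Eif2ak2 had the larger absolute change between the parental lines. Dhx58 (-2.07, adjusted p = 0.00013), Rtp4 (-1.78, adjusted p = 0.00012), Cmpk2 (-1.66, adjusted p = 2.1e-05), Tap1 (-1.58, adjusted p = 1.7e-05), Xaf1 (-1.49, adjusted p = 0.00023) and Psmb9 (-1.30, adjusted p = 1.8e-05) led those below 0. Ifitm3 (3.89, adjusted p = 3.1e-06) and Ifit2 (3.43, adjusted p = 0.00017) led the other direction. Oas2 differed by 0.02 (SE 0.16, adjusted p = 0.91). The values of Ifit3 (3.42) and Oas3 (-1.35, adjusted p = 0.0036) rest on groups that were not well above background, and that of Oas3 turned to 0.41 (adjusted p = 0.006) after normexp background correction.

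Empty-vector and untransduced pro-B(-) cells were on different slides, so that slide, transduction and any difference of culture cannot be told apart. The largest decreases were those of Oas1a, at least 6.52-fold (adjusted p = 0.0014), Rtp4, 5.12-fold (adjusted p = 1.9e-05), Oas3, at least 1.92-fold (adjusted p = 9.8e-05), Ifitm2, 2.79-fold (adjusted p = 7.9e-06), Usp18, 2.36-fold (adjusted p = 1.4e-05), and Rsad2, 2.10-fold (adjusted p = 0.00052). The count of 5 members called higher fell to 3 without either pro-B(+) array, pro-B(-)/Mock replicate 2, pro-B(-) replicate 1 or pro-B(-)/LMO2 replicate 1. Ifitm3 was the 1 member that rose past log2 1, by 4.34-fold (adjusted p = 3.7e-06). Among the factors, Irf7 was lower by 0.39 (SE 0.058, adjusted p = 0.0028) and Irf1 higher by 0.43 (SE 0.037, adjusted p = 0.00041). The Irf1 call was lost when both its probes, of which the second was dim, were averaged (0.37, adjusted p = 0.71). Irf9 (0.10, SE 0.036, adjusted p = 0.051) and Stat2 (-0.05, SE 0.17, adjusted p = 0.82) were not called. Lmo2 and empty-vector cells shared a slide, and their comparison does not use the untransduced cells. For Oas1a, Ifitm2, Rtp4 and Usp18, levels in untransduced pro-B(-) cells lay between those of empty-vector cells and pro-B(+) cells.

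Upstream of these genes, the ligand list showed a single large change. Ifng, which encodes interferon gamma, was at -4.58 and -4.65 in pro-B(+) and at -2.76 and -2.93 in pro-B(-)/LMO2, and was not well above background in pro-B(-) or pro-B(-)/Mock cells. Its excess in pro-B(+) was at least 2.28-fold (adjusted p = 0.0016) and with Lmo2 at least 9.54-fold (adjusted p = 2.4e-05). Ifnb1, Ifna2, Ifna4 and Ifne were not well above background on any array, and Ifna1 was not called in any of the 3 comparisons (log2 0.15, 0.03 and 0.47). Ifnk, an interferon known from keratinocytes, was at -4.95 to -4.15 on the 8 arrays and was lower in pro-B(+) by 0.34 (adjusted p = 0.045).

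The receptors and the signalling core differed between the comparisons. Of the 5 receptor genes tested, 4 were called higher and 1 lower in pro-B(+), and 2 higher and 1 lower with Lmo2. Of all probes, 20.6% were called higher and 28.0% lower in pro-B(+), and 28.0% and 36.0% with Lmo2. Ifngr2, the second chain of the interferon gamma receptor, was at 1.25 and 1.32 in pro-B(+) and 0.15 and 0.25 in pro-B(-), 2.12-fold apart (adjusted p = 3.9e-05), and was not called with Lmo2 (0.14, SE 0.053, adjusted p = 0.062). The kinase genes Jak1, Jak2 and Tyk2 and the transcription factor gene Stat3 were called higher with Lmo2, by 0.50 to 0.70 on the log2 scale. Between the parental lines none of these 4 was called higher and Stat3 was lower by 0.16 (adjusted p = 0.012). The 6 negative regulators tested were mixed, with 2 called higher and 2 lower in pro-B(+), 33.3% each, and 4 higher and 2 lower with Lmo2, 66.7% and 33.3%. Of these, Socs3 was 3.41-fold higher with Lmo2 (adjusted p = 8.6e-06) and 1.48-fold higher in pro-B(+) (adjusted p = 0.00072).

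**Figure D4:**
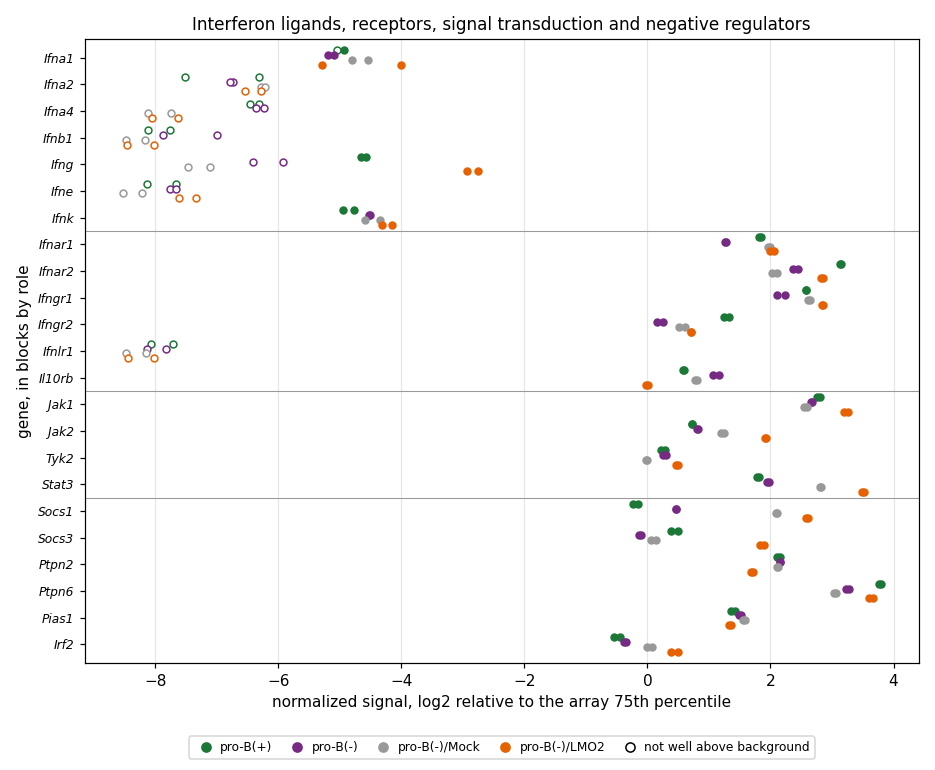
Normalized log2 signal (x axis) of interferon ligands, receptors, signal transduction genes and negative regulators on each of 8 arrays, with colours for groups and open points where a probe was not well above background. Ifng was well above background only in pro-B(+) and pro-B(-)/LMO2 cells, and Socs3 was highest on both pro-B(-)/LMO2 arrays.

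Among the 12 genes tested from the list of nucleic acid sensing upstream of interferon, 5 were called higher and 3 lower in pro-B(+), and 6 higher and 1 lower with Lmo2. In pro-B(+) these were 41.7% and 25% of the list, beside 20.6% and 28.0% of all probes. With Lmo2 they were 50% and 8.33%, beside 28.0% and 36.0%. The median log2 change of the list was small, 0.02 in pro-B(+) and 0.19 with Lmo2. Irf8, a factor of myeloid and B lineage development, passed log2 1, with levels of 2.61 on both arrays of pro-B(+), 0.47 and 0.55 in pro-B(-), 1.09 and 1.05 with the empty vector and 2.87 and 2.90 with Lmo2. It was 4.28-fold higher in pro-B(+) (adjusted p = 1.5e-06) and 3.53-fold higher with Lmo2 (adjusted p = 2.8e-06).

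A wider list of interferon-responsive genes showed 15 higher and 5 lower of 26 tested in pro-B(+), and 23 higher and 2 lower of 27 with Lmo2. In pro-B(+) these were 57.7% and 19.2% of the list, beside 20.6% and 28.0% of all probes. With Lmo2 they were 85.2% and 7.41%, beside 28.0% and 36.0%. In empty-vector against untransduced pro-B(-) cells, 10 of 26 were called higher and 9 lower, 38.5% and 34.6% beside 27.9% and 30.2% of all probes. Of the genes named below, Ly6a (6-fold) and Gbp4 (5.11-fold) were higher in that comparison, and Nmi (8.86-fold) and Gbp6 (2.62-fold) lower. Ifi27l2a (log2 -0.23) and Nlrc5 (0.22) moved little there, and Slfn5 was not tested. Ifi27l2a, a mitochondrial interferon-induced protein gene, was 5.63-fold higher in pro-B(+) (adjusted p = 1.4e-06) and 18.1-fold higher with Lmo2 (adjusted p = 5.4e-07). Gbp4, another guanylate-binding protein gene, was 11-fold higher with Lmo2 (adjusted p = 3.9e-07) and higher by 0.39 in pro-B(+) (adjusted p = 0.00031), a call lost on median-scaled arrays (0.10) and after normexp correction (0.095). Ly6a, which encodes Sca-1, a marker of stem and progenitor cells that interferon induces, was 8.40-fold higher in pro-B(+) (adjusted p = 1.3e-06) and 3.66-fold higher with Lmo2 (adjusted p = 6.5e-06). Slfn5 was at least 2.18-fold higher with Lmo2 (adjusted p = 3.8e-05) and was not tested between the lines. Nmi, which binds STAT proteins, and Gbp6 went against each other: Nmi was 2.30-fold higher in pro-B(+) (adjusted p = 0.0093) and lower with Lmo2 (log2 -2.55, SE 0.24, adjusted p = 0.00033, 1 of 2 Lmo2 arrays well above background). Gbp6 was lower in pro-B(+) (-0.81, SE 0.11, adjusted p = 0.0019) and 3.72-fold higher with Lmo2 (adjusted p = 5.3e-05). The parental value of Gbp6 turned to 0.30 when both its probes were averaged, and the parental call of Nmi was lost without pro-B(-) replicate 2 (1.17, adjusted p = 0.050). Nlrc5, the transactivator of class I genes, was picked after its values were seen. It was 3.46-fold lower in pro-B(+) (adjusted p = 4.1e-06) and 2.12-fold higher with Lmo2 (adjusted p = 2.5e-05).

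Other genes of class I presentation rose with Lmo2 in 9 of 12 cases and fell in 2, which is 75% and 16.7% of the list beside 28.0% and 36.0% of all probes. Between the parental lines 4 were called higher and 3 lower, 33.3% and 25.0% beside 20.6% and 28.0% of all probes. Whether the list's shares differed between both comparisons was not tested. Tapbp (tapasin) was 3.00-fold higher with Lmo2 (adjusted p = 2.7e-06) and 1.49-fold higher in pro-B(+) (adjusted p = 8.5e-05). The heavy chain genes H2-K1 and H2-D1 were 2.69-fold (adjusted p = 4.8e-05) and 2.31-fold (adjusted p = 5.1e-06) higher with Lmo2. In pro-B(+), H2-K1 was higher by 0.47 (adjusted p = 0.0048, a call lost on median-scaled arrays) and H2-D1 lower by 0.29 (adjusted p = 0.0011). Tap2, the partner of Tap1, was 2.19-fold lower in pro-B(+) (adjusted p = 1.2e-05) and higher by 0.32 with Lmo2 (adjusted p = 0.001), in the same directions as Tap1. On median-scaled arrays the Lmo2 call of Tap2 was lost (0.11, adjusted p = 0.061).

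Markers of other cell types moved beside these genes, and their part in the results was not tested. In bulk RNA, fewer cells of a type and less RNA per cell cannot be told apart. The marker counts here and in the next paragraph stand beside these shares of all probes called higher and lower. They were 20.6% and 28.0% between the parental lines, 28.0% and 36.0% with Lmo2, and 27.9% and 30.2% with the empty vector. The mean level of 12 myeloid markers was 1.21 to 1.22 in pro-B(+), -2.13 to -2.07 in pro-B(-), -2.43 to -2.32 with the empty vector and -1.75 to -1.54 with Lmo2. Their summed linear level was 109 to 111, 80.5 to 89.5, 77.1 to 79.0 and 79.2 to 84.6 in that order. Csf3r, at 5.73 to 6.29 on the 8 arrays, made up most of each sum, so the sums say little about the other myeloid markers. Of these markers, 9 of 12 tested were called higher in pro-B(+), led by S100a8 (at least 193-fold), and 1 lower. With Lmo2, 4 of 10 were called higher and 3 lower. Mpo, the myeloperoxidase gene of granulocyte precursors, was at 3.99 and 4.02 in pro-B(+), 0.56 and 0.60 in pro-B(-), -0.43 and -0.40 with the empty vector and 4 and 3.94 with Lmo2. It was 20.9-fold higher with Lmo2 (adjusted p = 3.9e-07), to about its pro-B(+) level. S100a8 was not well above background in Lmo2, empty-vector or pro-B(-) cells, and Lyz2 was at 1.38 and 1.04 in pro-B(+) and -2.61 and -2.80 in pro-B(-)/LMO2 and not well above background in the other groups. The summed level of 14 stromal markers was 23.5 to 23.9 in pro-B(+), 11.2 to 11.5 in pro-B(-), 18.2 to 18.4 with the empty vector and 19.2 to 20.1 with Lmo2. Of these, 10 of 11 tested were called higher in pro-B(+) and none lower, 6 of 12 higher and 3 lower with Lmo2, and 11 of 12 higher with the empty vector. The collagen gene Col1a1 differed 3.14-fold between the parental lines, in the same direction (adjusted p = 3.1e-06) and higher by 0.24 with Lmo2 (adjusted p = 0.0036). Dcn and Lum, also defining stromal genes, were not well above background in any group. Of the 8 markers of T and NK cells, 6 could be tested in each comparison and 4 were called higher and 1 lower in each. Their summed level was 4.45 to 4.47 in pro-B(+), 1.91 to 2.03 in pro-B(-), 2.46 on both pro-B(-)/Mock arrays and 10.7 to 11.1 in pro-B(-)/LMO2. Nkg7, at 1.89 and 1.86 in pro-B(+) and 3.36 and 3.31 in pro-B(-)/LMO2, made up most of each sum. The 8 markers of plasmacytoid dendritic cells, the professional makers of type I interferon, were all well above background in every group, with summed levels of 100 to 105, 131 to 136, 146 to 148 and 113 to 118 for pro-B(+), pro-B(-), the empty vector and Lmo2 in turn. Of these, 4 were called higher and 2 lower in each of both comparisons.

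Of 7 B-lineage markers, 6 could be tested between the parental lines, with 2 called higher and 2 lower, and 5 with Lmo2, with 2 higher and 3 lower. Blnk, an adaptor of B-cell receptor signalling, was at -0.26 and -0.29 in pro-B(+), -5.25 and -5 in pro-B(-), -4.50 and -4.53 with the empty vector and -2.30 and -2.51 with Lmo2. Cd79b, a chain of the B-cell receptor, stood at least 34.9-fold above its pro-B(-) level in pro-B(+) cells (adjusted p = 2.2e-06) and was 3.16-fold higher with Lmo2 (adjusted p = 0.0001). Vpreb1 and Igll1 were the 2 called lower in pro-B(+). Vpreb1 was at -2.60 and -2.53 in pro-B(+) and at -1.26 and -1.29 in pro-B(-). Igll1 was not well above background in pro-B(+) and was at -5.22 and -5.19 in pro-B(-). With Lmo2 the 3 called lower were Vpreb1, Igll1 and Pax5. Ms4a1 was not well above background in any group. The 9 early lymphoid markers were well above background in every group, and 1 was called higher and 5 lower in pro-B(+), and 2 higher and 4 lower with Lmo2. Dntt, the gene of terminal transferase, was lower by 2.92 in pro-B(+) (adjusted p = 2.6e-06) and higher by 4.02 with Lmo2 (adjusted p = 1.4e-06), both on the log2 scale. The V(D)J recombinase gene Rag1 was lower in both comparisons, by 0.77 (adjusted p = 0.0069) and 2.78 (adjusted p = 3.9e-05). Kit was the 1 marker called higher in pro-B(+), by 2.24, and was called higher with Lmo2 as well. Its level was 0.67 and 0.68 in pro-B(+) and -1.65 and -1.47 in pro-B(-). It was -0.03 and -0.04 with the empty vector and 1.48 and 1.53 with Lmo2.

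**Figure D5:**
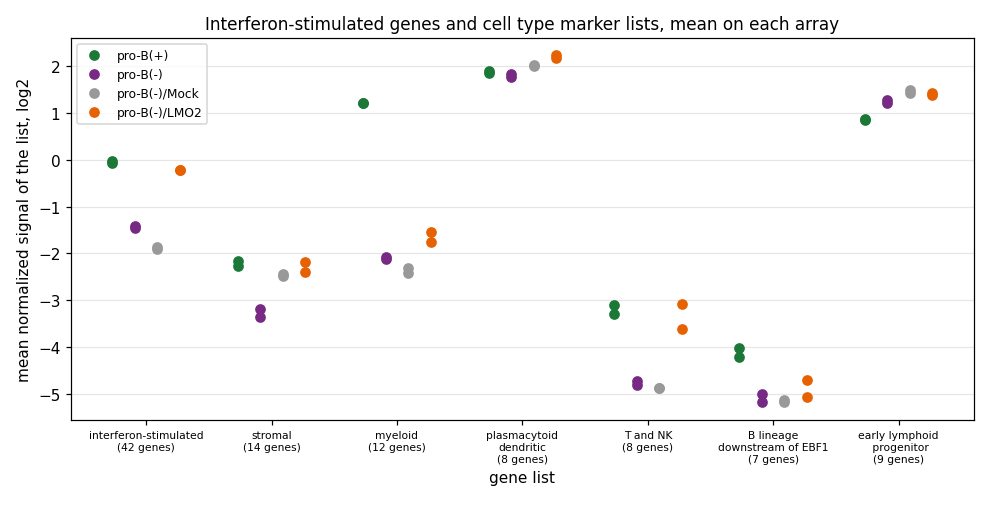
Mean normalized log2 signal (y axis) of the 42 interferon-stimulated genes and of 6 marker lists, with 1 point per array and colours for groups. The interferon-stimulated genes stood at -0.06 to -0.03 in pro-B(+), -1.45 to -1.41 in pro-B(-), -1.91 to -1.86 with the empty vector and -0.22 with Lmo2, and the myeloid markers at 1.21 to 1.22 in pro-B(+) and -2.43 to -1.54 in the other groups.

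A second probe was present for 11 members. Where it was tested, its change had the sign of the chosen probe in every called case for the parental and Lmo2 comparisons, and the second probes of Xaf1 (0.54) and Cmpk2 (-0.01) were not called between the parental lines. Oas1a, Ifit3 and other members have close relatives in the mouse genome, and how far their probes detect these was not examined.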

How the data were processed

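Total RNA of 8 samples (4 groups of 2, from the sample titles) was labelled with Cy3 and hybridised to one-colour Agilent whole mouse genome arrays. The deposited spot intensity was written by Feature Extraction 11.5.1.1, per the file headers, after subtraction of background and detrending within the array. The authors' matrix, deposited on the log2 scale after 75th percentile normalization, equalled the processed scanner values on that scale after a single shift per array.

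Control spots and spots with outlier flags were removed, spots of a probe were averaged, and 39378 of 39429 probes were analysed. Probes were named by accession through a RefSeq table (67.4% had a symbol). Values were log2 intensity minus the 75th percentile of the array. limma 3.58.1 (R 4.3.3) was fitted with 4 group means over all 8 arrays, giving 4 residual degrees of freedom. A probe was tested if well above background on both arrays of a compared group, p-values were adjusted by Benjamini-Hochberg over all probes tested, and calls were made at 0.05. The fit was tested on simulated data. An exact permutation test of 2 against 2 cannot go below p = 0.333, so none was used. The number of arrays limits the precision.

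The members, gene lists and rules were chosen with earlier results of these data known. Members called with a log2 change of at least 1, and Irf1, Irf7, Irf9 and Stat2, were named with their tests, and for the difference of the changes up to 10 called members. Of each pathway list, up to 6 genes called with a log2 change of at least 1 in the parental or Lmo2 comparison were named. Results for 2 listed genes are not reported here. Alternatives were other scalings, the deposited matrix, normexp background on the median spot and local background signals (offset 50, with a local background over 100 set to the array median), other filters on dim probes, 4 arrays only, an intensity trend, a replicate block, averaged probes, and leaving out each array. Same-numbered replicates did not deviate together (correlations of -0.027 to 0.052). Promoter sequences were taken from RefSeq (GRCm38.p6).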

Additional observations from a re-analysis of the deposited data

Results flagged for a closer look

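For 10 members the change between the parental lines differed from the change with Lmo2, by the test of the difference itself in limma with Benjamini-Hochberg adjustment over 24583 probes. These were the largest called differences in the list, where 54.1% of all probes were called, so a difference of this kind was common on these arrays. The difference is the parental log2 change minus the Lmo2 log2 change. It was positive for Ifitm3 (3.89), Ifit2 (3.43) and Ifit3 (3.42). It was negative for Dhx58 (-2.07), Rtp4 (-1.78), Cmpk2 (-1.66), Tap1 (-1.58), Xaf1 (-1.49), Oas3 (-1.35) and Psmb9 (-1.30). Ifit3 was well above background in pro-B(+) alone. Ifit2 was well above background on 1 of 2 pro-B(-)/LMO2 arrays. Oas3 was not well above background with the empty vector, and its Lmo2 change at the bound, 2.33, was below its parental change of 2.68.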

How the results depend on the processing

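With 28 members called higher and 5 lower between the parental lines, 36 and 1 with Lmo2, 5 and 19 for the empty vector and 34 for the difference, leaving out 1 array at a time gave ranges of 27 to 28, 5 to 6, 34 to 35, 1 to 1, 3 to 5, 16 to 19 and 31 to 35, in that order. Median scaling gave 11 lower between the parental lines and 3 lower with Lmo2. Members lower with Lmo2 numbered 2 after quantile normalization, 2 with normexp background, 2 with the 4 arrays of the comparison and 0 with probes well above background on all arrays compared. Members higher with the empty vector numbered 3 without a filter on dim probes and 3 with the 4 arrays of the comparison. Signs turned on median-scaled arrays for Irf1 (-0.17) and Stat2 (-0.16) between the parental lines and for Ifngr2 (-0.068) with Lmo2. Signs also turned for Stat2 with the empty vector without pro-B(-)/Mock replicate 2 (0.11, and -0.21 without replicate 1), for the difference of Oas3 with normexp background (0.41) and for Gbp6 between the parental lines when its probes were averaged (0.30). The cause was not tested. Same-numbered replicates share only a number (correlations -0.0273 to 0.0515). The replicate block gave 27 higher and 5 lower between the parental lines, 35 and 1 with Lmo2, 5 and 19 for the empty vector and 33 for the difference, and among the 95 named results it ended the Stat2 call with Lmo2 (adjusted p = 0.0532) and added a call for Ifngr2 (0.0399). The deposited matrix changed no call among these 95. With 2 arrays a group, and with levels near background bounded only from one side, small changes of dim genes such as Ifi44 could not be measured.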
